A study of Mus musculus with 8 samples.

Results

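The genes described here are 10 transcripts of the pressor pathways that signal through Gq in the mouse left ventricle. They are the angiotensin receptor gene Agtr1a, the endothelin receptor genes Ednra and Ednrb, the alpha-1 adrenergic receptor genes Adra1a and Adra1b, the converting enzyme gene Ace, the endothelin-1 gene Edn1, and the brakes Grk5, Rgs2 and Rgs4. They were taken by name from 55487 gene identifiers, with earlier results of these data known. All 10 were among the 14695 genes with enough reads to be tested. RNA-seq had been performed on 8 left ventricles, 4 per genotype, each a separate biological replicate. The libraries called KO came from CM-ADGRF5-KO mice, whose genotype label gives a myocyte-specific GPR116-/- deletion. ADGRF5 and GPR116 are names of the same adhesion receptor. The controls are titled NLC and carry the genotype label wild-type. Both groups were C57BL/6 mice aged 12 weeks and held 2 males (replicates 1 and 2) and 2 females (replicates 3 and 4). The driver of the deletion is not given in the sources used here.

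Angiotensin II, endothelin-1 and noradrenaline bind receptors that activate Gq, which switches on phospholipase C and raises calcium in cardiomyocytes and vascular smooth muscle. In the heart these inputs are known for driving contraction, vessel tone and hypertrophic growth. G protein-coupled receptor kinases phosphorylate active receptors so that arrestins uncouple them, and RGS proteins shorten the signal by speeding GTP hydrolysis on the G protein. The title of the series places ADGRF5 in cardiac homeostasis through Gαq, and the question asked of these 10 genes is whether their transcript levels differ when cardiomyocytes lack that receptor.

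The libraries held 26.6 to 39.6 M gene reads in KO and 25.3 to 28.3 M in NLC (M, 1e06 reads). Levels are read counts per 1e06 gene reads (CPM), scaled by TMM factors. The targeted gene, Adgrf5, averaged 224 ± 15.7 CPM in KO and 233 ± 17.4 CPM in NLC (SD, n = 4 each), with a log2 fold change of -0.05 (edgeR adjusted p = 0.782). Other cells of the ventricle also transcribe Adgrf5, so this level does not check the genotype labels, on which every direction below rests. Cardiomyocyte markers summed to 68452 to 81532 CPM in KO and 64890 to 76875 CPM in NLC. Atrial marker transcripts (Sln, Myl4, Myl7, Nppa, Bmp10 and Dkk3) summed to 369 to 1492 CPM in KO and 389 to 6151 CPM in NLC, with the highest sum in NLC replicate 4. Most of each sum was Nppa, at 336 to 1034 CPM in KO and 283 to 3778 CPM in NLC. Myl7 varied more, from 0.264 to 183 CPM in KO and from 0.371 to 983 CPM in NLC. In whole ventricle, fewer cells of a type and less RNA per cell cannot be told apart.

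None of the 10 genes passed the test between genotypes. By edgeR's quasi-likelihood test with sex as a term, 0 of 10 passed an adjusted p of 0.05, beside 0.102% of all genes tested. DESeq2 also called 0 of 10, beside 0.904% of the genes to which it gave an adjusted p, as did limma voom, beside 0.0885%, and edgeR with no filter on low counts, beside 2.22%. At an unadjusted p under 0.05, 1 of 10 passed (Adra1a, lower), where 11.9% of all genes did. In 0 of 10 did the 4 KO libraries lie wholly above or below the 4 NLC libraries, against 6.25% of all genes. Of the log2 fold changes 4 were positive and 6 negative, with a median of -0.05, and the median over all genes tested was -0.01. The median size without sign was 0.16, against 0.12 over all genes. Of the 5 receptor genes, 4 had a negative log2 fold change, from -0.32 to -0.05, and the fifth, Agtr1a, stood at 0.03. The signs of Agtr1a, Adra1b, Ace, Edn1 and Rgs4 turned in at least 1 case when each of the 8 libraries was omitted in turn, and those of Ednra, Ednrb, Adra1a, Grk5 and Rgs2 in none. Without NLC replicate 2 the log2 fold change was -0.16 for Ednra and -0.11 for Ednrb, and without KO replicate 2 that of Grk5 was 0.12.

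**Figure D1:**
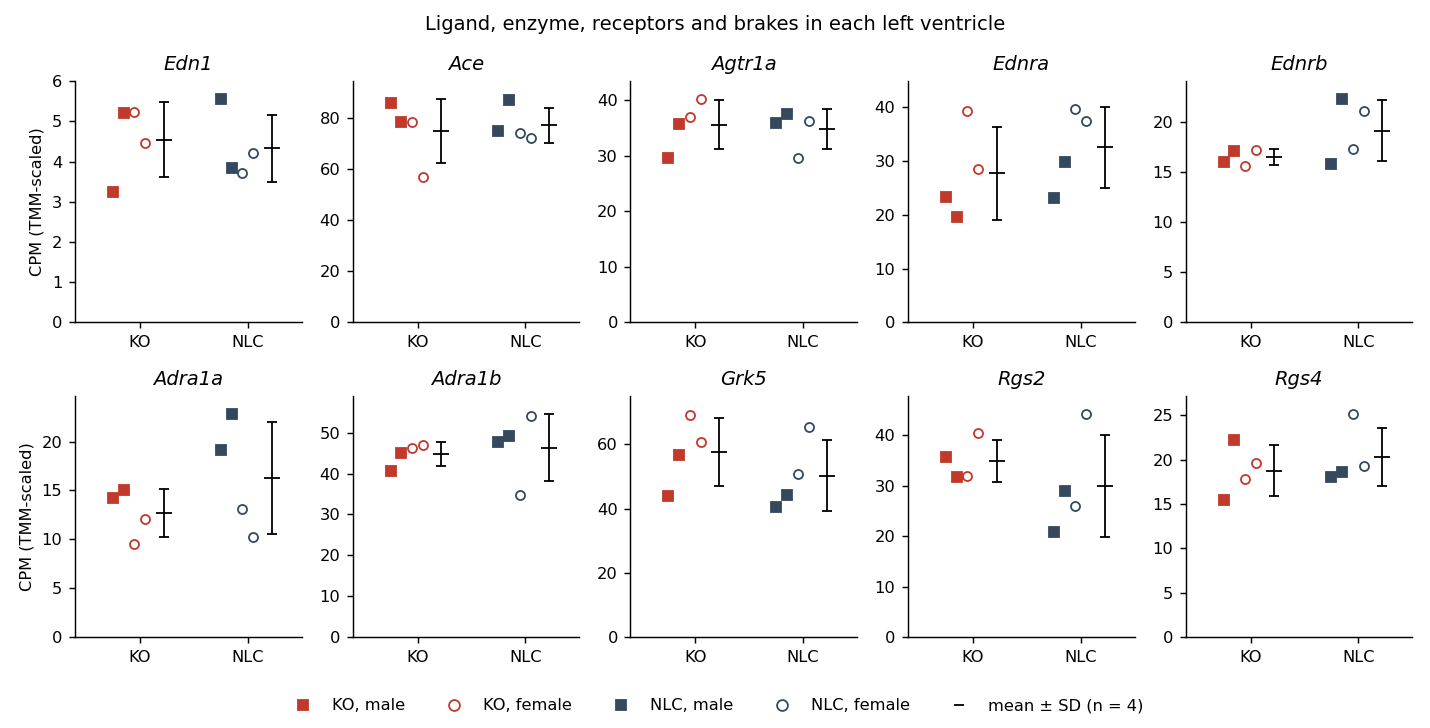
Level of each gene in every left ventricle, in CPM on a linear axis from 0, with KO left of NLC; squares are males, open circles are females, and the black bars are the mean ± SD of 4 libraries. In every panel the KO and NLC libraries overlap.

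Edn1 encodes endothelin-1, a vasoconstrictor peptide released mainly by endothelium. It was among the sparsest of the 10, with 94 to 151 reads per library. It was measured at 3.25, 5.22, 5.23 and 4.47 CPM in KO replicates 1 to 4, and at 5.55, 3.83, 3.71 and 4.22 CPM in NLC replicates 1 to 4. The highest library was a male NLC and the lowest a male KO. The groups overlapped in males and with the sexes pooled, while in females the KO libraries lay above the NLC libraries. KO over NLC, Edn1 had a log2 fold change of 0.07 (SE 0.195, adjusted p = 0.899 by edgeR). The 95% interval, -0.37 to 0.50, was the widest of the 10 genes. Edn1 (ENSMUSG00000021367) lies at chr13:42301476-42307990 on the plus strand of GRCm38.

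Ace encodes the angiotensin-converting enzyme, which makes angiotensin II from angiotensin I and sits largely on endothelium. It stood at 86.1, 78.5, 78.5 and 57.0 CPM in the KO libraries and at 75.2, 87.1, 74.3 and 72.2 CPM in the NLC libraries. KO replicate 4, a female, was the low library, and the other 7 lay close together. Ace had a log2 fold change of -0.05 (SE 0.0999, edgeR adjusted p = 0.862), with a 95% interval of -0.27 to 0.18. In percent that interval runs from -16.9% to 13.0%. Ace (ENSMUSG00000020681, chr11:105967945-105989964, plus strand) shares 295 exonic bases with the antisense gene Gm11651. Edn1 shares 35 such bases with Gm47118 and Ednra shares 91 with 4933431K23Rik. The libraries were stranded per the labels, but the strand setting of the counting is not given in the sources used here. These 3 counts may therefore include antisense reads, or lack reads that were set aside as ambiguous.

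Agtr1a encodes the main type 1 angiotensin II receptor of the mouse. Its level was 29.6, 35.6, 36.9 and 40.2 CPM in KO, against 35.9, 37.6, 29.5 and 36.2 CPM in NLC. The ranges nearly coincided, and the lowest library of each group was of a different sex. Agtr1a had a log2 fold change of 0.03 (SE 0.109, edgeR adjusted p = 0.922) with a 95% interval of -0.21 to 0.27, which in percent is -13.8% to 20.7%. Its near copy Agtr1b had 1 read in all 8 libraries together, and Agtr2, the gene of the type 2 receptor, had 4. Reads that map to both copies of the type 1 receptor gene would have been set aside as multiply mapped, so the Agtr1a level (ENSMUSG00000049115, chr13:30336441-30382867, plus strand) may be understated.

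Ednra and Ednrb encode the A and B endothelin receptors, the A type found on smooth muscle and cardiomyocytes and the B type prominent on endothelium. Ednra was measured at 23.3, 19.5, 39.3 and 28.5 CPM in KO and at 23.1, 29.7, 39.7 and 37.5 CPM in NLC. Low values were those of males in both groups, and replicate 3, a female, was the highest library of each. Ednra had a log2 fold change of -0.24 (SE 0.120, edgeR adjusted p = 0.439), with a 95% interval of -0.51 to 0.02. Ednrb stood at 16.0, 17.1, 15.6 and 17.2 CPM in KO and at 15.9, 22.3, 17.3 and 21.1 CPM in NLC. Here the 4 KO libraries were tightly grouped (16.5 ± 0.791 CPM), while the NLC libraries spread further (19.1 ± 3.06 CPM, SD, n = 4 each). That of Ednrb was -0.21 (SE 0.114, edgeR adjusted p = 0.460), with a 95% interval of -0.47 to 0.04. The exact two-sided permutation test over 70 assignments, which has no sex term, gave p = 0.429 for Ednra and p = 0.171 for Ednrb. Its smallest reachable p is 0.0286. With sex as a term, the unadjusted edgeR p was 0.0710 for Ednra and 0.0880 for Ednrb. On GRCm38 Ednra (ENSMUSG00000031616) spans chr8:77663031-77724464 and Ednrb (ENSMUSG00000022122) spans chr14:103814625-103844402, both on the minus strand.

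The 250 bases before the RefSeq start of Ednra are shown because the gene is one of those that varied most with sex, as described below. They lie at chr8:77724453-77724702, minus strand, of GRCm38.p6, and are printed on the gene's strand. Capitals would mark any of 5 motifs searched on both strands. They are the TATA box TATAAA, the CCAAT box CCAAT, the GC box GGGCGG, the androgen or glucocorticoid receptor half-site AGAACA and the oestrogen receptor half-site GGTCA. The sequence holds none of these letters in either direction.
Ednra: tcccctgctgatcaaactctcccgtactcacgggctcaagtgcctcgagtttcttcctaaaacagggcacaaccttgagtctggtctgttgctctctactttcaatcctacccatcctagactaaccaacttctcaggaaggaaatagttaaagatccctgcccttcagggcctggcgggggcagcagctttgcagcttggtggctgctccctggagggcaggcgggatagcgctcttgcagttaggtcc
Of 32851 RefSeq promoters of this length, 12.4% hold the TATA box letters, 33.8% CCAAT, 32.7% the GC box, 16.1% AGAACA and 35.2% GGTCA.

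The alpha-1 adrenergic receptors answer noradrenaline and adrenaline, and both Adra1a and Adra1b are known from cardiomyocytes. Adra1a had 14.2, 15.0, 9.48 and 12.1 CPM in KO, against 19.2, 22.8, 13.1 and 10.2 CPM in NLC. The 2 male NLC libraries were the highest of the 8, and the 2 female NLC libraries lay within the KO range. Adra1a averaged 12.7 ± 2.48 CPM in KO and 16.3 ± 5.73 CPM in NLC (SD, n = 4 each). For Adra1a this gave a log2 fold change of -0.32 (SE 0.129, edgeR unadjusted p = 0.0307 and adjusted p = 0.374), with a 95% interval of -0.61 to -0.04. The exact two-sided permutation test, which has no sex term, gave p = 0.371. Adra1b had 40.6, 45.0, 46.2 and 47.0 CPM in KO and 47.6, 49.1, 34.7 and 54.0 CPM in NLC. The 4 KO libraries lay inside the range of the NLC libraries, which the 2 NLC females bounded at both ends. Adra1b had a log2 fold change of -0.05 (SE 0.124, edgeR adjusted p = 0.873), with a 95% interval of -0.33 to 0.22. Adra1a (ENSMUSG00000045875) is at chr14:66635251-66771168 on the plus strand and Adra1b (ENSMUSG00000050541) at chr11:43774606-43901210 on the minus strand of GRCm38.

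Grk5 encodes a receptor kinase abundant in heart that phosphorylates active receptors. It was measured at 44.0, 56.7, 69.2 and 60.8 CPM in KO and at 40.6, 44.2, 50.8 and 65.5 CPM in NLC. Within each genotype both females lay above both males, and the KO and NLC ranges overlapped. Grk5 had a log2 fold change of 0.20 (SE 0.105, edgeR unadjusted p = 0.0804 and adjusted p = 0.451), with a 95% interval of -0.03 to 0.44. The exact two-sided permutation p, without a sex term, was 0.343. Its transcript (ENSMUSG00000003228) comes from chr19:60889749-61095968 on the plus strand of GRCm38. The 250 bases before the RefSeq start, at chr19:60889499-60889748 of GRCm38.p6, are shown beside Ednra because both genes were lower in males. They too hold none of the 5 motifs, and their GC content is 49.6%, against 54.8% for Ednra and a median of 52.4% over all RefSeq promoters.
Grk5: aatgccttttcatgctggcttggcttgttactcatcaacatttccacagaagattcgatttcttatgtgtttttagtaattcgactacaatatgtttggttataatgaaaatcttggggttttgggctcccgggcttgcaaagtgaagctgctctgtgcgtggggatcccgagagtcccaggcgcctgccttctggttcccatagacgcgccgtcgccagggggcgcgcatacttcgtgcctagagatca

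Rgs2 and Rgs4 encode small RGS proteins, of which Rgs2 acts with preference on Gq. Rgs2 stood at 35.7, 31.6, 31.9 and 40.5 CPM in KO, against 20.9, 28.9, 26.0 and 44.3 CPM in NLC. All 4 KO libraries lay above 3 of the NLC libraries, and NLC replicate 4 was the highest of the 8. Rgs2 had a log2 fold change of 0.24 (SE 0.176, edgeR adjusted p = 0.572), the largest positive one of the 10 genes, with a 95% interval of -0.15 to 0.63. Leaving out each library in turn moved it between 0.11 and 0.45, its top value without NLC replicate 4, with edgeR adjusted p of 0.262 to 0.847. Rgs4 had 15.4, 22.2, 17.9 and 19.6 CPM in KO and 18.0, 18.6, 25.2 and 19.3 CPM in NLC. The groups overlapped, with NLC replicate 3 the high library. Rgs4 had a log2 fold change of -0.11 (SE 0.131, edgeR adjusted p = 0.734), with a 95% interval of -0.40 to 0.18.

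Both RGS genes are on chromosome 1 of GRCm38, Rgs2 (ENSMUSG00000026360) at 143999338 to 144004161 and Rgs4 (ENSMUSG00000038530) at 169741477 to 169747642, each on the minus strand. Their promoters are shown because this pair of related brakes differs in the motifs found. The 250 bases before the RefSeq start of Rgs2 (chr1:144004150-144004399, GRCm38.p6) hold 4 GC boxes, read as CCGCCC on the gene's strand, and 1 CCAAT box 94 bases before the start. Those of Rgs4 (chr1:169747643-169747892) hold 1 TATA box, TATAAA, starting 31 bases before the start, and 1 CCAAT box read as ATTGG. The GC content is 72.4% for Rgs2 and 53.6% for Rgs4. Capitals mark the motifs.
Rgs2: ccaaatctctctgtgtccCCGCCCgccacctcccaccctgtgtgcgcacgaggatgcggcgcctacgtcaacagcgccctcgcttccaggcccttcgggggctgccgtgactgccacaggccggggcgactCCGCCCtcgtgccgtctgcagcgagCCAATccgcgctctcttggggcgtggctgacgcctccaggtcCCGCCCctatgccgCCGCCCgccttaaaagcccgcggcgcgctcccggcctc
Rgs4: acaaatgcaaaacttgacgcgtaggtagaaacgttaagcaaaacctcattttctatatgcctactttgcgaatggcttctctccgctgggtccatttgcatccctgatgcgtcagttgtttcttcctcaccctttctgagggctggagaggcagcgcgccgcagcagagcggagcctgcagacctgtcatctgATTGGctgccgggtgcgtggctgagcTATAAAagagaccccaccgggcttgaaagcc
RefSeq promoters were at hand for 8 of the 10 genes, all but Agtr1a and Adra1a. Of those not shown, Ednrb held AGAACA, a promoter each of Adra1b and Ace held GGTCA, and Edn1 held neither. Whether these letters bear on differences between the sexes was not tested.

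**Figure D2:**
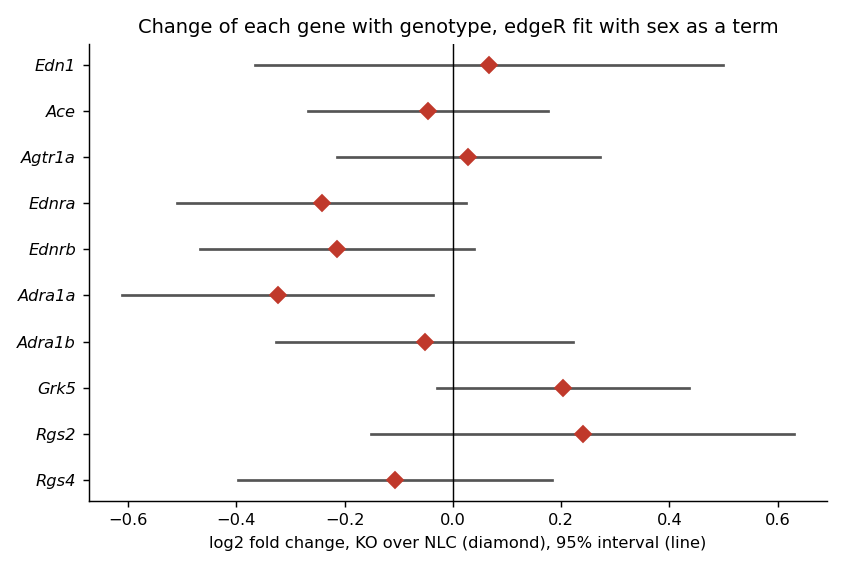
Log2 fold change of each gene, KO over NLC (diamond), with its 95% interval (line), from the edgeR fit with sex as a term. The interval of Adra1a (-0.61 to -0.04) excludes 0 before adjustment over all genes, and the other 9 include it.

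Levels of different genes were compared per kilobase of exon. On that scale Ace stood highest, at 14.2 ± 2.38 CPM per kilobase in KO and 14.6 ± 1.27 in NLC, and Adra1a lowest, at 1.46 ± 0.284 in KO and 1.87 ± 0.656 in NLC (SD, n = 4 each). Over all 8 libraries the order of mean levels per kilobase ran from Ace (14.4) through Adra1b (13.5), Agtr1a (12.6), Rgs2 (8.96), Grk5 (7.65), Rgs4 (6.30), Ednra (5.49), Ednrb (4.18) and Edn1 (2.07) to Adra1a (1.66). The top and bottom of this order were 8.66-fold apart. Of the 9 neighbouring pairs, 8 overlapped in their libraries, so their order is not firm. Ednrb and Edn1 did not overlap. KO and NLC gave the same order of means. With the longest transcript as the length in place of all exons, Agtr1a stood first, at 16.0, and Adra1a ninth, at 3.39, above Edn1.

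**Figure D3:**
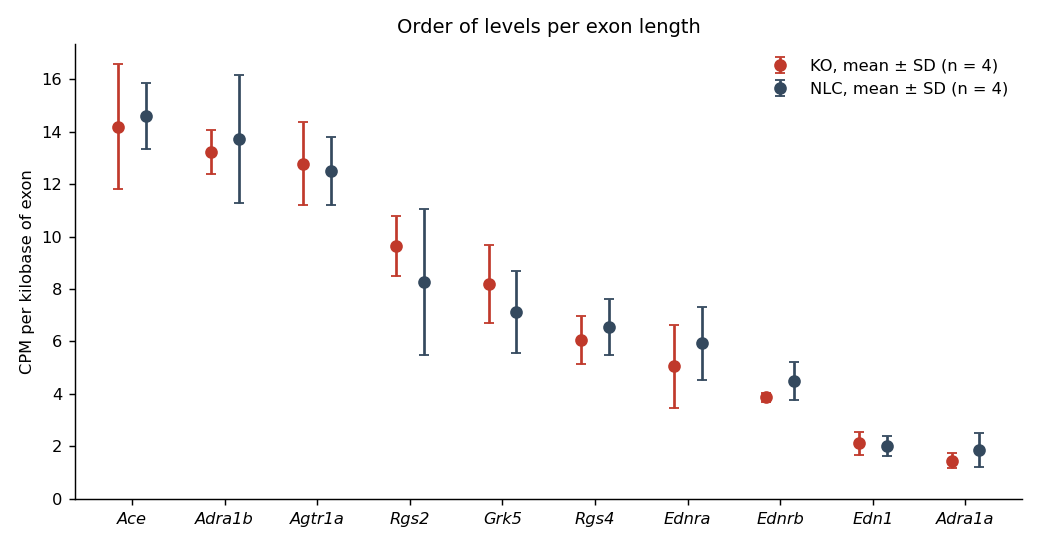
Level of each gene in CPM per kilobase of exon (linear axis from 0), with the mean ± SD of 4 KO and of 4 NLC libraries, sorted by the mean of all 8. The order is the same in both groups, with Ace at the top and Adra1a at the bottom.

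Balances between related transcripts overlapped between the genotypes as well. Per kilobase of all exons, Ednra made up 55.7% ± 8.03 of the endothelin receptor level in KO and 56.5% ± 5.85 in NLC. Adra1b was the main alpha-1 receptor transcript, with 74.9% ± 2.91 of the level of Adra1a, Adra1b and Adra1d in KO and 76.0% ± 3.63 in NLC. The Adra1a share was 8.29% ± 1.79 in KO and 10.4% ± 3.12 in NLC. Rgs2 made up 61.4% ± 4.98 of the level of Rgs2 and Rgs4 in KO and 54.9% ± 8.62 in NLC. The share of Grk5 in the level of Grk2, Grk3, Grk5 and Grk6 was 22.1% ± 4.62 in KO and 19.7% ± 3.79 in NLC (SD, n = 4 each). In each of these 5 shares the KO and NLC libraries overlapped. The size of a share depends on the length used. By longest transcript the mean level per kilobase was 8.29 for Ednra and 4.34 for Ednrb, against 5.49 and 4.18 by all exons. For Adra1a it was 3.39 against 1.66.

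The largest differences among the 10 genes lay between males and females, in Adra1a, Ednra and Grk5, though none passed by edgeR. Adra1a averaged 17.8 ± 3.99 CPM in males and 11.2 ± 1.67 CPM in females (SD, n = 4 each). The lowest male library stood at 14.2 CPM and the highest female library at 13.1 CPM, so the sexes did not overlap. The log2 fold change of males over females was 0.65 (SE 0.129, edgeR adjusted p = 0.0966). By exact two-sided permutation the unadjusted p was 0.0286, the smallest it can reach. Full separation of the sexes always gives this value. Such a separation of the sexes was found in 1 of 10 genes and in 6.87% of all genes tested.

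Ednra and Grk5 were lower in males. Ednra averaged 23.9 ± 4.26 CPM in males and 36.2 ± 5.26 CPM in females, with a log2 fold change of -0.61 (SE 0.120, edgeR adjusted p = 0.0936). Only the highest male library, at 29.7 CPM, and the lowest female library, at 28.5 CPM, crossed. Grk5 averaged 46.4 ± 7.08 CPM in males and 61.6 ± 7.94 CPM in females (SD, n = 4 each), with a log2 fold change of -0.41 (SE 0.105, edgeR adjusted p = 0.188). The exact two-sided permutation p was 0.0571 for each of the 2 genes. Ace, described below, had the same permutation p between the sexes. At an unadjusted p under 0.05, 3 of 10 genes passed between the sexes, where 12.8% of all genes did.

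The tools differed on these 3 genes. edgeR called 0 of 10 between the sexes, beside 0.299% of all genes, and limma voom also called 0, beside 0.272%. DESeq2 called all 3, with adjusted p of 0.00145 for Adra1a, 0.000668 for Ednra and 0.0274 for Grk5, beside 1.46% of the genes to which it gave an adjusted p. Without the filter on low counts edgeR called the 3 as well, beside 2.65% of 27953 genes. In that unfiltered fit the prior degrees of freedom for the spread were infinite, where the filtered fit had 5.22. Over 8 fits that left out a library, the edgeR adjusted p was 0.0540 to 0.330 for Adra1a, 0.0579 to 0.297 for Ednra and 0.0577 to 0.497 for Grk5, and the direction held in each. The males were libraries 1 to 4 in the submitters' numbering and the females 5 to 8, so sex and library order cannot be told apart. Mitochondrially encoded transcripts took 19.6% to 21.9% of gene reads in males and 17.4% to 18.3% in females. Multiply mapped reads made up 18.8% to 20.3% of reads in males and 16.8% to 17.9% in females. Neither measure overlapped between the sexes. With mitochondrially encoded genes removed, the log2 fold change of males over females was 0.65 for Adra1a, -0.60 for Ednra and -0.41 for Grk5. That removal rescales the libraries and leaves the counts of other genes unchanged. It does not test what the mitochondrial share reflects, and the part of multiply mapped reads was not tested either.

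**Figure D4:**
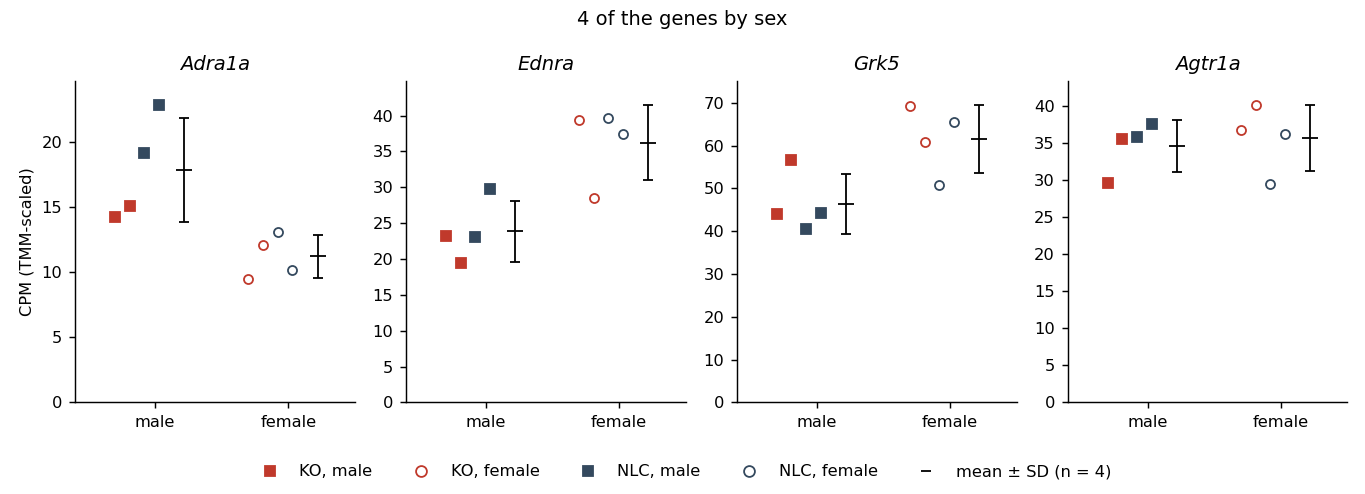
Level of 4 genes in CPM (linear axis from 0), males left of females, with KO in red, NLC in dark blue and black bars for the mean ± SD of 4 libraries. Adra1a is higher in all 4 males than in all 4 females, Ednra and Grk5 lean the other way with some overlap, and Agtr1a shows the sexes at the same level.

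The remaining 7 genes had smaller differences between the sexes. Ace stood at 81.7 ± 5.83 CPM in males and 70.5 ± 9.40 CPM in females (log2 fold change 0.21, edgeR adjusted p = 0.405). Rgs2 stood at 29.3 ± 6.25 CPM in males and 35.7 ± 8.28 CPM in females (SD, n = 4 each; log2 fold change -0.30, edgeR adjusted p = 0.503). For Rgs4, Agtr1a, Adra1b, Ednrb and Edn1 the log2 fold changes ran from -0.14 to 0.02. Per kilobase of all exons, Ednra made up 47.0% to 53.1% of the endothelin receptor level in males and 56.3% to 66.2% in females. These ranges did not overlap, while those of the other 4 shares did. Ednrb averaged 17.8 ± 3.04 CPM in males and 17.8 ± 2.32 CPM in females (SD, n = 4 each).

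Marker sums of cardiomyocytes, pericytes, fibroblasts, endothelium, smooth muscle, macrophages and glia overlapped between the sexes. Smooth muscle markers summed to 2825 to 3516 CPM in males and 2731 to 3206 CPM in females, with 5 of 6 lower in males. Pericyte markers summed to 524 to 607 CPM in males and 527 to 611 CPM in females, with 4 of 7 higher in males. Fibroblast markers summed to 728 to 852 CPM in males and 720 to 970 CPM in females, with 6 of 7 lower in males. Cardiomyocyte markers summed to 64890 to 79003 CPM in males and 71040 to 81532 CPM in females, with 7 of 8 lower in males. Macrophage markers summed to 286 to 373 CPM in males and 233 to 297 CPM in females, with 6 of 7 higher in males, and Csf1r passed by edgeR (log2 fold change 0.43, adjusted p = 0.0325). All 5 tested atrial markers and all 5 glial markers were lower in males, and none of them passed. Atrial sums overlapped, at 407 to 871 CPM in males and 369 to 6151 CPM in females. Among females, Myl7 stood at 183 CPM in KO replicate 3 and 983 CPM in NLC replicate 4. It stood at 8.12 CPM in KO replicate 4 and 0.371 CPM in NLC replicate 3, against 0.264 to 157 CPM in males. Between genotypes, endothelial markers summed to 1016 to 1104 CPM in KO and 1055 to 1257 CPM in NLC, with 8 of 10 lower. Smooth muscle markers summed to 3054 to 3516 CPM in KO and 2731 to 2962 CPM in NLC, so that all KO sums were above all NLC sums. Most of each sum was Des, which cardiomyocytes also express, and 4 of the 6 markers were lower in KO. Of all these markers Csf1r alone passed by edgeR, between the sexes, and none was at 0 in every library. Their part in the values of the 10 genes was not tested.

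Within each sex 2 KO libraries were set against 2 NLC libraries in a fit that shares 1 estimate of the spread over all 8. By edgeR 0 of 10 genes passed in males, beside 0.0408% of all genes, and 0 of 10 in females, beside 0.0% of all genes. At an unadjusted p under 0.05 these counts were 1 of 10 in males, beside 17.5% of all genes, and 0 of 10 in females, beside 5.12%. Without the filter on low counts 2 of 10 passed in males, Adra1a and Rgs2, beside 3.6% of all genes. Adra1a in males gave the smallest p, with a log2 fold change of -0.52 (SE 0.162, edgeR unadjusted p = 0.010 and adjusted p = 0.195). Its male KO libraries, at 14.2 and 15.0 CPM, lay below the male NLC libraries, at 19.2 and 22.8 CPM. In females its log2 fold change was -0.11 (SE 0.167), and the difference between the sexes, -0.41 (SE 0.233), had an edgeR adjusted p of 0.675. Both male KO libraries precede both male NLC libraries in the numbering, so genotype and library order cannot be told apart in males.

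Between males and females 5 of the 10 genes had log2 fold changes, KO over NLC, of opposite sign. They were Agtr1a, Adra1b (-0.18 in males and 0.07 in females), Ace (0.02 and -0.11), Edn1 (-0.16 and 0.29) and Rgs4 (0.03 and -0.25). KO and NLC libraries did not overlap in 4 of 10 genes in males, beside 50.9% of all genes, and in 3 of 10 in females, beside 34.4%. Agtr1a was the gene that did so in both sexes. The male KO libraries, at 29.6 and 35.6 CPM, lay below the male NLC libraries, at 35.9 and 37.6 CPM. The female KO libraries, at 36.9 and 40.2 CPM, lay above the female NLC libraries, at 29.5 and 36.2 CPM. KO over NLC, Agtr1a stood at -0.17 (SE 0.131) on the log2 scale in males and 0.23 (SE 0.131) in females. The test of the difference itself gave -0.40 (SE 0.185, edgeR unadjusted p = 0.0577 and adjusted p = 0.648), and that of Edn1 gave -0.45 (SE 0.379, edgeR adjusted p = 0.751). Over the 10 genes this difference passed an adjusted p of 0.05 in 0, beside 0.0% of all genes tested, and an unadjusted p of 0.05 in 0, beside 7.46%.

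The wider pathway was then counted, in 6 lists that hold 87 genes, of which 66 were tested. By edgeR 0 of the 66 passed. Leaving aside the 10 genes, 7 of 56 had an unadjusted p under 0.05, of which 1 was higher and 6 lower in KO, beside 5.77% of all genes higher and 6.18% lower. The KO and NLC libraries did not overlap in 3 of the 56, where 6.25% of all genes did not. The median log2 fold change of the 56 was -0.03.

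**Figure D5:**
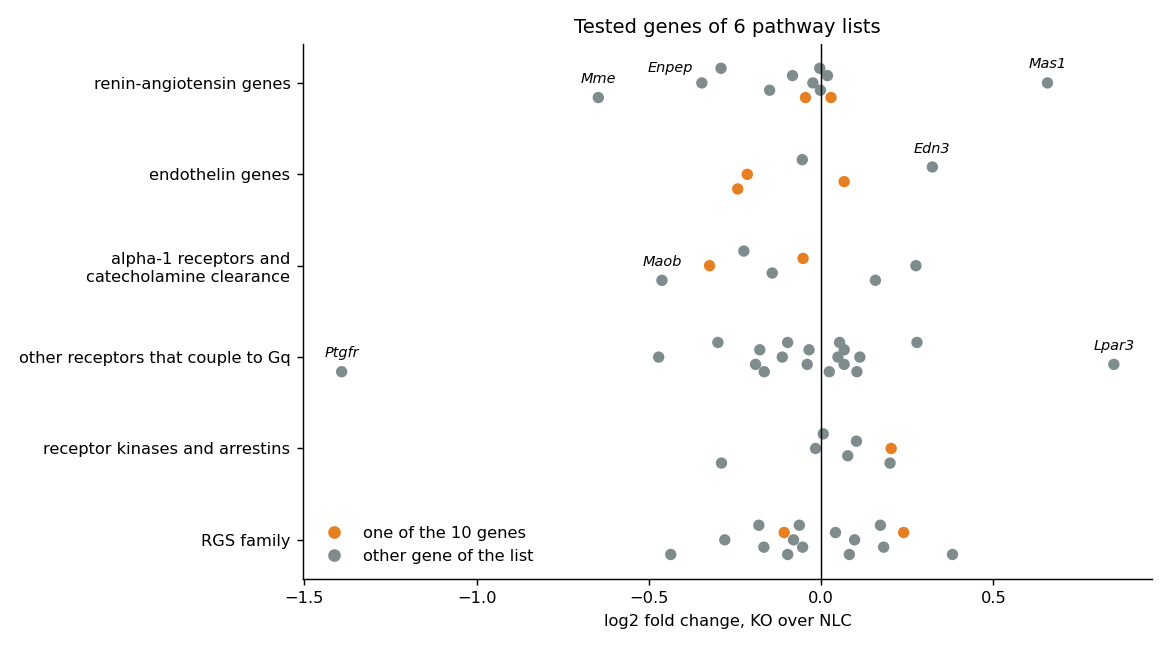
Log2 fold change, KO over NLC, of each tested gene in 6 pathway lists, with the 10 genes in orange and the other genes of each list in grey. Most points lie close to 0, and the named outer points (Mme, Enpep, Mas1, Edn3, Maob, Ptgfr and Lpar3) did not pass over all genes.

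The renin-angiotensin list held 12 tested genes of 15, and the 3 whose KO and NLC libraries did not overlap were all here. Mme, which encodes neprilysin, a peptidase that degrades natriuretic peptides and angiotensins, stood at 5.84, 5.53, 5.16 and 6.24 CPM in KO, against 9.07, 10.6, 7.22 and 8.89 CPM in NLC. Every KO library was below every NLC library. The log2 fold change of Mme was -0.65 (SE 0.126, edgeR adjusted p = 0.129). DESeq2 gave it an adjusted p of 0.00536, and edgeR without NLC replicate 3 gave 0.0364. Over the 8 fits that left out a library the edgeR adjusted p ran up to 0.437.

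Enpep encodes aminopeptidase A, which trims angiotensin II. It averaged 9.01 ± 0.964 CPM in KO and 11.5 ± 0.197 CPM in NLC (SD, n = 4 each), with a log2 fold change of -0.35 (SE 0.0947, edgeR adjusted p = 0.246). Mas1, the gene of the receptor for angiotensin-(1-7), was sparse, at 1.24, 1.45, 0.913 and 1.58 CPM in KO and 0.750, 0.816, 0.843 and 0.865 CPM in NLC. All KO libraries were above all NLC libraries for Mas1, with a log2 fold change of 0.66 (SE 0.238, edgeR adjusted p = 0.350). Agt, the gene of the angiotensin precursor, had a log2 fold change of -0.004 (SE 0.240). Ren1, the renin gene, had 15 reads over the 8 libraries and was not tested.

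Of 8 endothelin genes 5 were tested. Edn3, a further endothelin ligand, averaged 6.23 ± 1.41 CPM in KO and 5.04 ± 1.68 CPM in NLC (log2 fold change 0.32, edgeR adjusted p = 0.588). That of Edn3 was 0.12 without NLC replicate 1, 0.20 without KO replicate 2, and 0.55 without KO replicate 4 or NLC replicate 3. Ece1, the enzyme that cuts out the active peptide, averaged 97.3 ± 6.02 CPM in KO and 101 ± 6.65 CPM in NLC (SD, n = 4 each; log2 fold change -0.05, edgeR adjusted p = 0.719). The ligand gene Edn2 had 23 reads in all. In the list of alpha-1 receptors and catecholamine clearance all 7 genes were tested. Maob, whose product oxidises monoamines, stood at 28.5, 32.3, 33.9 and 37.8 CPM in KO, against 45.6, 55.2, 30.4 and 51.6 CPM in NLC. NLC replicate 3 lay among the KO libraries and the other 3 NLC libraries above them. The log2 fold change of Maob was -0.46 (SE 0.168, edgeR adjusted p = 0.350), and without NLC replicate 3 it was -0.65 (edgeR adjusted p = 0.0315). Without NLC replicate 2 it was -0.36 (edgeR adjusted p = 0.701), and without NLC replicate 4 also -0.36. Adra1d, the third alpha-1 receptor gene, had a log2 fold change of 0.28 (SE 0.187), which was 0.11 without NLC replicate 3 and 0.18 without KO replicate 3.

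Other receptors that couple to Gq made up a list of 25, of which 19 were tested. Ptgfr, the prostaglandin F receptor gene, had 2.57, 2.56, 7.41 and 2.97 CPM in KO and 4.31, 9.38, 3.04 and 24.0 CPM in NLC. NLC replicate 4 was far above the rest, and it is also the library with the highest atrial marker sum. Within KO, replicate 3 was highest for Ptgfr and for the atrial marker sum alike. A link between the 2 measures was not tested. The log2 fold change of Ptgfr was -1.39 (SE 0.537, edgeR adjusted p = 0.361), and -0.60 without NLC replicate 4. S1pr3, a sphingosine 1-phosphate receptor gene, averaged 31.5 ± 1.66 CPM in KO and 35.3 ± 2.21 CPM in NLC (log2 fold change -0.17, edgeR adjusted p = 0.412). Lpar3, a lysophosphatidic acid receptor gene, averaged 1.55 ± 0.538 CPM in KO and 0.848 ± 0.577 CPM in NLC (SD, n = 4 each; log2 fold change 0.85, edgeR adjusted p = 0.426). That of Lpar3 was 0.48 without NLC replicate 3 and 1.34 without NLC replicate 4.

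Among receptor kinases and arrestins 7 of 8 genes were tested. Grk3 had a log2 fold change of -0.29 (SE 0.138, edgeR adjusted p = 0.431), and -0.15 without NLC replicate 4. Grk2, the most studied receptor kinase of the heart, had one of -0.02 (SE 0.0679). Grk4 stood at 0.20 (SE 0.172) and Grk6 at 0.10 (SE 0.0898). Of 24 genes with an RGS domain or a link to one, 16 were tested. Axin2, a scaffold of Wnt signalling with an RGS domain, averaged 4.41 ± 0.456 CPM in KO and 5.36 ± 0.683 CPM in NLC, with a log2 fold change of -0.28 (SE 0.121, edgeR adjusted p = 0.408). Rgs5, a pericyte transcript, averaged 451 ± 54.6 CPM in KO and 506 ± 51.4 CPM in NLC (SD, n = 4 each; log2 fold change -0.17, edgeR adjusted p = 0.518, and -0.08 without KO replicate 1). Rgs3 had a log2 fold change of -0.08 (SE 0.0619).

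The genes most like Adra1a, Ednra and Grk5 across the 8 libraries were sought among 12977 genes with a mean of at least 1 CPM, by Pearson's r of log2 CPM. These 3 genes have the smallest unadjusted p between KO and NLC. Adra1a was closest to Zfp536 (r = 0.982), Polq (r = 0.982) and 3425401B19Rik (r = 0.978). Ednra was closest to Chordc1 (r = 0.975) and Pomt2 (r = 0.970), and Grk5 to Aldh1a3 (r = 0.972), Rpl22l1 (r = 0.960) and Tmem184c (r = 0.951). Among the 10 genes themselves the highest r was 0.80, between Agtr1a and Adra1b, and the lowest was -0.86, between Adra1a and Grk5. All points share their libraries and depths, and r over 8 libraries is a description only.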

How the data were processed

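Per the labels' protocols, total RNA was column-purified and stranded mRNA libraries were sequenced on a HiSeq. The authors deposited raw read counts per gene, 1 file per library, with 55487 Ensembl identifiers. The submitters' processing notes name GRCm38, STAR, HTSeq and DESeq2. Their versions, annotation release and strand setting are not stated there. Each file ends in 5 entries that name no gene, left out here, with 16.8% to 20.3% of the reads multiply mapped, 3.07% to 4.08% in no gene and 1.26% to 1.38% ambiguous. Symbols for 55227 identifiers, coordinates and exon lengths came from GENCODE M21, and promoters from RefSeq (GRCm38.p6).

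Counts were fitted in R 4.3.3 with edgeR 4.0.16 (filterByExpr by genotype, TMM, glmQLFit and glmQLFTest, sex as an additive term). P-values were adjusted by Benjamini-Hochberg over all 14695 genes tested, with a threshold of 0.05. A fit of 4 sex-by-genotype means gave the contrasts within sexes and their difference. Exact permutation tests used log2(CPM + 0.5) in SciPy 1.17.1. Alternatives were DESeq2 1.42.0, limma voom 3.58.1, other scalings and filters, no sex term, a replicate block, removal of mitochondrial genes and each library left out. A setting of at least 1 CPM in 4 libraries was the stricter filter. The script was tested on simulated counts.

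The 10 genes and all lists were chosen with earlier results of these data known. Of each list, the rule named called genes, otherwise up to 3 with the smallest unadjusted p outside the 10. Agt, Ren1, Agtr1b, Agtr2, Edn2 and Grk2 were named after their values were seen. A few genes that these rules would name are not reported here. The libraries of a group differed by more than sampling noise (chi-square over its degrees of freedom, 14.2 to 38.5), and none was merged. Depths of 25.3 to 39.6 M gene reads make 1 read worth 0.0264 to 0.0408 CPM.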

Additional observations from a re-analysis of the deposited data

Results flagged for a closer look

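In KO, Ptgfr replicate 3 stood apart from the other 3 libraries of its group, at 7.41 CPM against 2.56 to 2.97 CPM. The gap to its nearest neighbour took up 0.916 of the range of the group by Dixon's ratio. In all, 56 pairs of a gene and a group were examined in this way, and chance flags about 1 in 20. None of the 10 pressor genes was flagged. KO replicate 3 also had the highest atrial marker sum of the KO libraries, at 1492 CPM. A link between that sum and the Ptgfr value was not tested.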

How the results depend on the processing

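For the 10 genes the count passing between KO and NLC was 0 under each of 17 alternatives. The count over all genes was less stable, at 15. It was 621 with no filter on low counts, 140 by DESeq2, 6 without a sex term, and between 0 and 50 with 1 library left out (0 without KO replicate 2 or 3 or NLC replicate 1 or 2, 50 without NLC replicate 3). With a replicate block it was 0. Whether the numbers shared by KO and NLC replicates pair the libraries is not settled by the counts. Deviations from the group mean, with sex left in, correlated at 0.307, 0.128, -0.218 and 0.0982 for same-numbered libraries. For the other pairs the correlations ran from -0.388 to 0.538. The block called 0 of the 10 genes. The unfiltered fit ran over 27953 genes, and its prior degrees of freedom for the spread became infinite, where the filtered fit had 5.22. In that fit 1 gene of the renin-angiotensin list passed (Mme), 1 of alpha-1 receptors and catecholamine clearance (Maob) and 1 of the other Gq receptors (Ptgfr). DESeq2 called 1 renin-angiotensin gene, Mme. With 1 library left out these counts were 0 to 1 for the renin-angiotensin list and 0 to 1 for alpha-1 receptors and catecholamine clearance. Between the sexes 3 of the 10 genes passed in the unfiltered fit and 3 by DESeq2. In males 2 passed unfiltered, Adra1a and Rgs2. The cause of these moves was not tested. Between KO and NLC, leaving out 1 library turned Agtr1a (-0.0685 to 0.12), Adra1b (-0.19 to 0.0571), Ace (-0.13 to 0.0525), Edn1 (-0.0308 to 0.23) and Rgs4 (-0.25 to 0.0025). Between males and females it turned Agtr1a (-0.14 to 0.0491), Ednrb (-0.10 to 0.0919), Adra1b (-0.14 to 0.11) and Edn1 (-0.15 to 0.19). Ednrb also turned in the sex comparison with no filter (-0.00189), the stricter filter (-0.00141) and limma voom (-0.00752), Adra1b with RLE scaling (0.000131), without mitochondrial genes (0.00103) and with limma voom (0.0152), and Edn1 with limma voom (-0.0338). In males it turned Ednrb (-0.43 to 0.0582), Ace (-0.0831 to 0.13), Edn1 (-0.54 to 0.15) and Rgs4 (-0.26 to 0.28). In females it turned Ednra (-0.44 to 0.0282), Adra1a (-0.30 to 0.0802), Adra1b (-0.21 to 0.43), Ace (-0.36 to 0.0994), Grk5 (-0.00958 to 0.36) and Rgs2 (-0.29 to 0.48). For the difference between the sexes it turned Ednra (-0.33 to 0.13), Ednrb (-0.21 to 0.29), Adra1b (-0.61 to 0.0341), Ace (-0.0783 to 0.38), Grk5 (-0.11 to 0.26), Rgs2 (-0.0414 to 0.73) and Rgs4 (-0.00737 to 0.52). Ednra, Ednrb, Adra1a, Grk5 and Rgs2 kept their sign between KO and NLC in all 17 alternatives. The alternatives for males against females, and for the within-sex contrasts the upper quartile, stricter-filter and mitochondrial settings, were chosen after seeing the data. With 1 library left out, a lone library of a sex and genotype is assumed to vary like the other groups.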
